A study of Mus musculus with 12 samples.

Results

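A set of 30 microRNA probes, out of 2270 in the authors' value table, was selected on signal that was higher in both groups of reprogrammed epithelial cells than in both groups of adult cells. The rule took the mean of the 3 arrays of each group in that table, on a log2 scale, and asked that the lower of the reprogrammed means lie at least 0.5 above the higher of the adult means. That distance is called the margin below. The margin was met by 33 probes, of which 3 were left out by name under the selection rule. Because measured values chose the members, their margins and their differences between reprogrammed and adult cells describe the choice and carry no test. The members' margins ran from 0.57 to 0.98 with a median of 0.79, or 1.73-fold. Just inside the threshold lay UCSF034_001809 at 0.58 and UCSF034_001994 at 0.57, and just outside it UCSF034_000798 at 0.48 and UCSF034_002129 at 0.46.

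MicroRNAs (miRNAs) are short RNAs, cut from hairpin precursors, that guide Argonaute proteins to partly complementary sites in messenger RNAs and lower the output of those messages. Members of a miRNA family share a seed near the 5′ end and can hybridise to related array probes. In epithelia, miRNAs such as the miR-200 family are known for keeping the epithelial state, while let-7 miRNAs accompany differentiation. The probes of this array carry serial names of the array maker, and 0 of the 30 members matched a miRNA name in the tables used here. Each member is therefore described by its probe name and its signal, without a sequence or a role. For the same reason the tissue identity of the arrays was not checked against marker miRNAs.

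The study measured miRNA in mouse epithelial cells on 12 single-colour arrays, 1 sample per array, in 4 groups of 3. Adult lung epithelial cells (replicates 1, 2 and 3) and adult mammary epithelial cells (replicates 1, 2 and 4) came, per the labels' protocols, from female donors aged 10 weeks. Tissue was digested with enzymes and epithelium was enriched by repeated centrifugation, with no cell sort named. Reprogrammed lung epithelial cells (replicates 1, 2 and 3) and reprogrammed mammary epithelial cells (replicates 1, 2 and 4) are labelled only by those names, and the protocol ends with cells placed in Matrigel for transplantation. The labels do not give strain or genotype, the age of the reprogrammed cells, how they were recovered from the host, or whether the tissue word names their origin or their fate. They also do not say whether replicates are different animals. The p-values below set group differences against the scatter of these samples, which may be technical, and need not extend to other animals. No array of the embryonic lung epithelium that the protocol describes (E13.5) was analysed here.

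Every one of the 30 members was well above background on all 12 arrays, so none passed a filter on dim signal through the reprogrammed groups alone, although UCSF034_000800 lay at or close to the floor of 3.42 on the 3 adult lung arrays (3.42, 3.46 and 3.55). Each array carried 6 spots of 20 members and 7 spots of the other 10. The brightness of an array is given here as the 75th percentile of its processed signal, taken over 630 probes that every array detected. Adult lung arrays were brightest, at 2493 ± 424, and reprogrammed mammary arrays dimmest, at 837 ± 29.4, with adult mammary arrays at 1405 ± 72.8 and reprogrammed lung arrays at 1519 ± 215 (SD, n = 3). Between 700 and 1006 probes were well above background per array. Reprogrammed mammary replicate 4 had the lowest brightness (805.2), the fewest detected probes (700) and the most spots marked as outliers (345). It was the highest of the 12 arrays for 28 of the 30 members. Adult lung replicate 1 was the highest of the 6 adult arrays for 25 members. The main comparisons, the spread and the shared deviations are given with and without these 2 arrays.

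Among the 10 members with the widest margins, UCSF034_002204 came first. Its table values were 12.61, 12.11 and 11.85 for adult lung, 11.67, 11.94 and 12.11 for adult mammary gland, 12.50, 13.45 and 13.56 for reprogrammed lung, and 13.53, 13.41 and 14.40 for reprogrammed mammary gland. Every other reprogrammed array lay above all adult arrays, while reprogrammed lung replicate 1 fell between adult lung replicates 1 and 2. The margin was 0.98. UCSF034_002393 had table values of 11.13, 10.24 and 10.23 for adult lung, 9.71, 10.17 and 10.50 for adult mammary gland, 11.18, 11.31 and 11.91 for reprogrammed lung, and 11.50, 11.48 and 12.70 for reprogrammed mammary gland. Here no reprogrammed array overlapped an adult one, but adult lung replicate 1 and reprogrammed lung replicate 1 lay close together. The margin was 0.93.

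A pair of members with nearby serial numbers had almost the same profile. UCSF034_001760 had table values of 7.81, 7.0 and 7.13 for adult lung, 7.11, 7.41 and 7.55 for adult mammary gland, 8.67, 8.63 and 8.34 for reprogrammed lung, and 7.89, 8.19 and 8.89 for reprogrammed mammary gland. UCSF034_001762 read 9.63, 8.74 and 8.84 for adult lung, 9.11, 9.19 and 9.75 for adult mammary gland, 10.59, 10.37 and 10.16 for reprogrammed lung, and 10.24, 9.87 and 10.75 for reprogrammed mammary gland. In both, all 6 reprogrammed arrays lay above all 6 adult arrays, and reprogrammed mammary replicate 4 was the highest array. Their margins were 0.97 and 0.93. Unlike most members, neither had a higher mean in reprogrammed mammary than in reprogrammed lung cells.

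UCSF034_002051 had table values of 12.46, 11.73 and 11.89 for adult lung, 11.18, 11.55 and 11.71 for adult mammary gland, 13.22, 12.56 and 13.11 for reprogrammed lung, and 12.60, 12.92 and 13.28 for reprogrammed mammary gland. No reprogrammed array overlapped an adult one, and adult mammary arrays gave the lowest readings. UCSF034_002239 had table means of 6.86 ± 0.24 for adult lung, 6.31 ± 0.30 for adult mammary gland, 7.73 ± 0.60 for reprogrammed lung, and 7.92 ± 0.78 for reprogrammed mammary gland (SD, n = 3). Its reprogrammed arrays were more spread than its adult arrays, and no reprogrammed array fell into the adult range. UCSF034_002402 had means of 11.17 ± 0.40, 10.97 ± 0.28, 12.04 ± 0.69 and 12.75 ± 0.53 in the same order (SD, n = 3). Here reprogrammed lung replicate 1, at 11.42, lay below adult lung replicate 1, at 11.62, so the groups overlapped.

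The other 3 of these 10 members, UCSF034_002017, UCSF034_002479 and UCSF034_002411, had margins of 0.89, 0.89 and 0.85 and no overlap between reprogrammed and adult arrays in the table. For UCSF034_002479 the nearest adult and reprogrammed arrays were 8.47 (adult lung replicate 1) and 8.54 (reprogrammed lung replicate 1). The remaining 20 members had margins from 0.57 to 0.84. Among them, UCSF034_001653 at 0.84 and UCSF034_001751 at 0.83 were the widest.

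The values were computed again from the scanner files, as log2 processed signal scaled by each array's brightness. On that scale the margins of the same members ran from 0.62 to 1.28 with a median of 1.00 (1.99-fold), and all 30 again had a margin of at least 0.5. These are the same hybridisations, so this is a second processing of the arrays that the rule used and not a repeat of the experiment. All 6 reprogrammed arrays lay above all 6 adult arrays for 19 of the 30 members on scanner values, against 5.07% of the 947 probes tested. In the authors' table this held for 16 of 30, against 1.15% of 2270 probes. Those that overlapped on scanner values were, besides UCSF034_002204, UCSF034_002393, UCSF034_002479 and UCSF034_002402, the members UCSF034_002180, UCSF034_002177, UCSF034_000800, UCSF034_002006, UCSF034_001758, UCSF034_002481 and UCSF034_001032. Apart from UCSF034_000800, their overlap involved adult lung replicate 1, the highest adult array for most members. Since the rule required separated means, nothing is read from these shares.

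Each of the 4 differences between a reprogrammed and an adult group was positive for all 30 members on scanner values. Reprogrammed lung exceeded adult lung by a median of 1.05 on the log2 scale (range 0.70 to 4.03, the highest being UCSF034_000800), against a median of 0.13 over all 947 probes. Against adult mammary cells the median excess of reprogrammed lung was 1.41 (range 0.62 to 1.98). Reprogrammed mammary cells exceeded adult mammary cells by 1.88 (0.80 to 2.39) and adult lung cells by 1.47 (0.93 to 3.00). The medians over all probes were -0.002, 0.003 and 0.155 for these 3 differences. The comparisons share groups, so the sets of values are not independent of each other. With adult lung replicate 1 and reprogrammed mammary replicate 4 left out, all 30 members stayed above 0 in each, and the medians were 1.31 and 1.41 for reprogrammed lung over adult lung and adult mammary cells, and 1.48 and 1.36 for reprogrammed mammary over adult mammary and adult lung cells. Because these are bulk samples, a higher share of cells that hold a miRNA and more of it per cell cannot be told apart.

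By the code that names each array's scan, the arrays lay on 3 slides, which the sample titles do not give. The members' differences are described here within each slide. On slide 1 were 2 adult lung arrays (replicates 1 and 2) and 1 of each other group, among them adult mammary replicate 1 and reprogrammed mammary replicate 4. Slide 2 carried 1 array of every group, and slide 3 carried 1 of each group other than adult lung. In every within-slide comparison of a reprogrammed with an adult group, all 30 members were higher in the reprogrammed cells. The rule used the means of these same arrays, so this order was favoured by the choice and nothing is read from the count. The members' median excess of reprogrammed over adult lung was 1.42 on slide 1 and 1.30 on slide 2. For reprogrammed over adult mammary it was 2.84 on slide 1, which holds reprogrammed mammary replicate 4 and adult mammary replicate 1, against 1.21 and 1.43 on slides 2 and 3. Reprogrammed lung lay above adult mammary cells by 2.01, 0.99 and 1.01 on slides 1, 2 and 3, and reprogrammed mammary above adult lung cells by 2.01 and 1.41 on slides 1 and 2. With both reprogrammed mammary replicate 4 and adult lung replicate 1 left out, the members' median margin on scanner values was 1.17. The rule applied to the table without these arrays found 36 probes, among them 28 members, which is 93.3% of the members and 77.8% of the longer list.

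How the arrays were scaled bears on the size of these differences and, where brightness differed most, on the sign of the members' median. Without any scaling, the median difference of reprogrammed mammary from adult lung was -0.10 for the members and -1.0 for all probes, the reprogrammed mammary arrays being the dimmest and the adult lung arrays the brightest. Only 10 of 30 members were then above 0, while 30 of 30 stood above the median of all probes, by 0.91 in the median. Reprogrammed lung against adult lung gave 0.34 for the members and -0.39 for all probes without scaling. After normexp background correction the reprogrammed mammary to adult lung difference was 1.41 for members and 0.96 for all probes, with 29 of 30 members above the latter. The members are thus described as higher relative to the bulk of probes on the same array.

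The members' share of each array's summed signal was also computed, which scales each array by its own total. It was 2.97%, 1.95% and 1.93% on the adult lung arrays and 1.27%, 1.70% and 1.96% on the adult mammary arrays. It was 3.50%, 4.07% and 4.74% on the reprogrammed lung arrays and 3.14%, 3.26% and 6.20% on the reprogrammed mammary arrays. All 6 reprogrammed arrays held a larger share than any adult array. Group means were 2.28% ± 0.596, 1.65% ± 0.350, 4.10% ± 0.624 and 4.20% ± 1.74 in the same order (SD, n = 3). Without reprogrammed mammary replicate 4 the mean share in that group was 3.20%, and without adult lung replicate 1 that of adult lung was 1.94%. Each of the 30 members had a larger share in both reprogrammed means than in both adult means. This share is again a description, since the same arrays chose the members.

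Whether members differed between the reprogrammed tissues was not asked by the rule and was tested. The rule used the lower of both means, however, so a wide gap between these tissues worked against membership. Few calls were thus favoured by the choice, and nothing is read from their count. At an adjusted p under 0.05, reprogrammed mammary minus reprogrammed lung gave 0 calls among 30 members (limma), where 0.211% of the 947 probes were called. At an unadjusted p under 0.05 there was 1 member, UCSF034_001994, against 19.3% of all probes. In 24 members the mean was higher in reprogrammed mammary cells and in 6 lower, with a median difference of 0.42 (range -1.03 to 0.93) against -0.0004 over all probes. None of these differences passed the threshold after adjustment over the 947 probes. For UCSF034_002204 the difference was 0.55 ± 0.36 (SE, adjusted p = 0.46), for UCSF034_002402 it was 0.85 ± 0.38 (SE, adjusted p = 0.264) and for UCSF034_002481, the highest, 0.93 ± 0.58 (SE, adjusted p = 0.425). The lean towards mammary cells moved with 1 array and with the scaling. Without reprogrammed mammary replicate 4 the median difference was 0.01, with 15 of 30 members positive. Within slides 1, 2 and 3 it was 0.70, 0.09 and 0.32, the first holding that array. Without any scaling the members' median turned to -0.43 against -0.69 over all probes, with 2 of 30 positive. Then 6 members were called lower (limma), where 347 of the 947 probes were called in either direction. After normexp it was 0.40, below the 0.48 of all probes.

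Only UCSF034_001994 had reprogrammed lung arrays all above the reprogrammed mammary arrays, where 10% of all tested probes did. Its scaled values were 7.18, 7.26 and 7.21 for reprogrammed lung, 6.47, 6.78 and 6.98 for reprogrammed mammary gland, against 5.80, 5.42 and 5.81 in adult lung and 5.93, 5.90 and 6.01 in adult mammary cells. Reprogrammed lung arrays agreed closely with each other and lay above the rest. The difference of reprogrammed mammary from reprogrammed lung was -0.47 ± 0.15 (SE), with an adjusted p of 0.133 (limma), and within slides 1, 2 and 3 it was -0.23, -0.47 and -0.71. The reverse order held for UCSF034_002008, with 13.64, 13.76 and 13.22 for reprogrammed lung against 13.96, 13.88 and 14.07 for reprogrammed mammary gland, where 10.1% of all probes showed that order. Its difference was 0.43 ± 0.21 (SE, adjusted p = 0.285).

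The adult tissues were compared in the same way. The rule used the higher of both adult means, so a wide gap between them also worked against membership. Nothing is read from the count of calls here either. Of 30 members, 0 were called between adult mammary and adult lung cells (limma), where 26.9% of the 947 probes were called. At an unadjusted p under 0.05 there were 2, against 36.9% of all probes. UCSF034_002336 was lower in the mammary gland, with a difference of -0.95 ± 0.42 (SE, adjusted p = 0.133), and UCSF034_002131 had one of 0.69 ± 0.29 (SE, adjusted p = 0.116). Neither passed the threshold. For UCSF034_002336 the scaled values were 7.11, 6.22 and 6.26 in adult lung and 5.10, 5.57 and 6.07 in adult mammary cells, with no overlap, an order seen in 18.5% of all probes. For UCSF034_002131 they were 7.22, 6.20 and 6.60 in adult lung and 6.91, 7.56 and 7.61 in adult mammary cells, which overlap. In addition, UCSF034_000800 and UCSF034_001994 had adult mammary arrays all above the adult lung arrays, as did 26.7% of all probes.

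The adult difference was negative in 23 members and positive in 7, with a median of -0.35 (range -0.95 to 2.08) against 0.00 over all probes. This lean, too, moved with single arrays and the scaling. Without adult lung replicate 1 the median was -0.05 and 14 members were positive, and UCSF034_002131 then had an adjusted p of 0.041 (limma). Without adult mammary replicate 1, the lowest of the 12 arrays for 21 members, it was -0.16. Slide 1, which holds both arrays, gave -0.78 and slide 2 gave 0.22. With slide as a block in the fit the median was -0.14, and 0 members were called, where 202 of the 947 probes were. Without any scaling the median was -1.17 against -0.69 over all probes. Of the members, 17 were then called lower (limma), where 437 of the 947 probes were called in either direction. After normexp the median was -0.21 against 0.44. The 2 members then called higher (limma) were UCSF034_002131 and UCSF034_001994, where 561 of the 947 probes were called in either direction.

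The third test asked whether the change from adult to reprogrammed cells was of unequal size in the tissues, as the mammary change minus the lung change. It equals the difference between reprogrammed tissues minus that between adult tissues, so it is not independent of the tests above. The rule asked that both changes be raised, though not that they be equal. The calls therefore describe chosen members. Again 0 of 30 members were called (limma), where 11.7% of 947 probes were, and 1 had an unadjusted p under 0.05, against 26.8% of all probes. The difference was positive in 25 members, with a median of 0.79 (range -3.11 to 1.43) against -0.03 over all probes. The lowest adjusted p was 0.0531, for UCSF034_001994, whose difference was -0.74 ± 0.21 (SE). Without reprogrammed mammary replicate 4 that member passed, with an adjusted p of 0.0302. Without both reprogrammed mammary replicate 4 and adult lung replicate 1 the members' median was 0.14, with 20 members positive, and UCSF034_001994 had an adjusted p of 0.039. Without reprogrammed mammary replicate 2 it was UCSF034_000800 that passed, at 0.0337.

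Replicate arrays of adult lung and of reprogrammed mammary cells differed more for the members than for most probes. The members' median SD was 0.438 in adult lung against 0.176 over all tested probes, and 0.640 against 0.271 in reprogrammed mammary cells. The gap was smaller in reprogrammed lung, at 0.442 against 0.335, and in adult mammary cells, at 0.327 against 0.300. Members whose SD lay above the median of all probes numbered 29 in adult lung, 17 in adult mammary gland, 18 in reprogrammed lung, and 28 in reprogrammed mammary gland. The spread between spots of 1 array was far smaller, with a median SD over spots of 0.0784 per member (0.0292 to 0.218) against 0.487 between arrays of a group (0.176 to 1.37). Both larger gaps moved with the 2 arrays that stood apart. Without adult lung replicate 1 the median SD over the remaining 2 arrays was 0.134 for members and 0.0700 for all probes, and without reprogrammed mammary replicate 4 it was 0.135 for members and 0.161 for all probes. The median SD of the members between arrays of a group was then 0.321.

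The deviations of single arrays were largely shared among members. After each group's mean was taken off, the median correlation between pairs of members over the 12 arrays was 0.81 (435 pairs, range -0.69 to 0.99), against 0.01 for all tested probes. For 26 of 30 members the deviations had a correlation above 0.8 with the median of the other members, as they had for 41 of the 917 other probes (4.47%) against the members' median. Without the 2 arrays that stood apart the median correlation was 0.51 (range -0.72 to 0.99), against 0.01 for all tested probes, and the counts above 0.8 were 14 of 30 members and 19 of 917 other probes (2.07%). The points of these correlations are the same 12 arrays, whose single-array deviations also enter the means that the rule used. The median member deviated from its group mean by 0.70 on reprogrammed mammary replicate 4 and by 0.50 on adult lung replicate 1. The lowest were -0.36 and -0.34 on reprogrammed mammary replicates 1 and 2 and -0.34 on adult mammary replicate 1. On these 2 high arrays the median deviation of other table probes with serial numbers above 1600 was 0.14 and 0.16, and that of probes with lower serials -0.01 and -0.01. What sets the arrays apart was not tested.

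UCSF034_000800 was the member least like the rest. Its median correlation with the other members over 12 arrays was 0.34, and -0.39 after group means were taken off. Its scaled values were 3.42, 3.46 and 3.55 for adult lung, 5.02, 5.25 and 6.42 for adult mammary gland, 8.93, 7.70 and 5.89 for reprogrammed lung, and 5.31, 8.96 and 5.15 for reprogrammed mammary gland. The high arrays were reprogrammed lung replicates 1 and 2 and reprogrammed mammary replicate 2, while reprogrammed mammary replicates 1 and 4 and reprogrammed lung replicate 3 lay in the range of adult mammary cells. The adult lung values lay at or close to the floor of 3.42, so the size of its change from adult lung depends on that floor. Its profile over 12 arrays correlated at 0.96 with UCSF034_000798 and at 0.97 with UCSF034_000799, neighbours in serial number that missed the threshold with margins of 0.48 and 0.36. These neighbours were looked up after the values of UCSF034_000800 were seen. UCSF034_000798 was detected on only 5 of the 12 arrays. Its values were highest on reprogrammed lung replicates 1 and 2 (6.0 and 4.6) and reprogrammed mammary replicate 2 (6.6). Elsewhere they lay at or close to the floor, so its correlation rests largely on those arrays. Next least alike were UCSF034_001994 (median correlation 0.76), UCSF034_002131 (0.79) and UCSF034_002008 (0.84). Most alike was UCSF034_002393, at 0.97.

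Most members carried high serial numbers, a property that the rule did not use. A serial above 1600, a boundary drawn after the values were seen, was carried by 27 of 30 members (90%). It was carried by 213 of the 754 tested probes of the value table (28.3%) and by 979 of all its 2270 probes (43.1%). What the serial order stands for is not known from the files. Tested probes of that range that were not members had smaller differences than the members, an order that the rule favoured. Their median difference of reprogrammed from adult lung was 0.41 over 186 probes, against 0.04 for 538 probes with lower serials, and for reprogrammed from adult mammary it was 0.32 against -0.03. Over 12 arrays the median correlation among all 435 pairs of members was 0.91, so members close in serial are to be read against that value. Of the 7 pairs of neighbours within 4 serials, 4 lay above it: UCSF034_002177 with UCSF034_002180 (0.99), UCSF034_002479 with UCSF034_002481 (0.99), UCSF034_001760 with UCSF034_001762 (0.97) and UCSF034_002008 with UCSF034_002012 (0.94). The other 3 lay below it: UCSF034_001808 with UCSF034_001809 (0.87), UCSF034_001758 with UCSF034_001760 (0.82) and UCSF034_002006 with UCSF034_002008 (0.82). Whether such pairs detect related miRNAs is not known from these files, so the 30 members need not stand for as many separate miRNAs.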

How the data were processed

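Cy3-labelled miRNA was hybridised to custom Agilent arrays, per the labels' protocols. Spot intensity in the deposited scanner files is linear and had its background subtracted by Feature Extraction, version 10.5.1.1 per the file headers and 10.1 per the submitters' processing notes. The file of reprogrammed lung replicate 3 lacks header blocks. For 2270 probes the authors deposited a value table in log2 units, whose scaling and centring are not given in the sources used here. Its columns each matched their own array's median spot signal best (lowest r = 0.996, same direction), and column medians ran from 4.97 to 5.00. There were 0 columns of other samples.

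Spots called outliers (164 to 345 per array) were dropped, and 0 were saturated. Arrays were brought to 1 brightness, as defined in the report, and signal was floored at 10.7 (3.42 in log2) before log2 values of a probe's spots were averaged. Detection on an array required over a 0.5 share of spots well above background, and 947 probes detected on at least 3 arrays were tested. For tests, a limma model (version 3.58.1, in R 4.3.3, with data.table at version 1.17.8) with 4 group means was fitted by lmFit and eBayes, with 8 residual and 1.47 prior degrees of freedom, and p-values were adjusted by Benjamini-Hochberg over the 947 probes at a threshold of 0.05. The code was tested on simulated data. With 3 arrays per group, their number limits the precision. SE is the standard error of the limma fit.

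Named probes were the 10 members with the widest margin, the 2 just inside and the 2 just outside the threshold, and members past a test's threshold. Other names were added after their values were seen. The members and lists were chosen with earlier results of these data known. The miRNA lists drawn up for these tissues matched 0 probes. Alternatives were other scalings, no scaling, normexp (offset 50, on median spot and background signals, the mean not being in the files used), the authors' table, no dim filter, slide and replicate blocks, the compared groups alone and leaving out each array. Leaving out adult lung replicate 1 with reprogrammed mammary replicate 4 was chosen after seeing the data. Replicate numbers were not used to pair samples in the main fit, since the labels do not say what they share.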

Additional observations from a re-analysis of the deposited data

Results flagged for a closer look

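The authors' value table leaves out 193 of the 947 tested probes. Of these, 3 had a margin of at least 0.5 between reprogrammed and adult cells on scanner values. The rule could not choose these probes, but their signal comes from the same hybridisations that it used. UCSF034_000138, with 1 spot per array, had means of 8.25 ± 0.08 for adult lung, 8.20 ± 0.41 for adult mammary gland, 8.97 ± 0.25 for reprogrammed lung, and 9.06 ± 0.36 for reprogrammed mammary gland (SD, n = 3), a margin of 0.72. UCSF034_000019 had 8.94 ± 0.14, 9.24 ± 0.21, 9.84 ± 0.38 and 10.02 ± 0.35 in the same order (SD, n = 3), a margin of 0.60 with no overlap between adult and reprogrammed arrays. UCSF034_000086 had a margin of 0.56 near the floor and was detected on 9 arrays, and after normexp its margin was 0.10. On the same scanner values 67 of the 754 tested probes of the table had such a margin, counted before any were left out by name. No test was made of these margins, since the probes were found by them.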

How the results depend on the processing

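Between reprogrammed tissues 0 members were called under every alternative except no scaling, which called 6, all lower in reprogrammed mammary cells. No scaling called 347 of the 947 probes there, and normexp called 468. Between adult tissues the count of 0 became 2 with the percentile over all probes (UCSF034_002051 and UCSF034_002169, lower), where 265 of the 947 probes were called. Without scaling it became 17 (all lower), where 437 probes were called. With normexp it became 2 (UCSF034_002131 and UCSF034_001994, higher), where 561 probes were called. With those groups alone it became 1 (UCSF034_000800), where 259 probes were called. Without adult lung replicate 1 and reprogrammed mammary replicate 4 it became 2 (UCSF034_001762 and UCSF034_002131), where 183 probes were called. For the difference of both changes the count became 1 without those 2 arrays, where 70 probes were called. Leaving out each array gave 0 to 0, 0 to 1 (UCSF034_002131, without adult lung replicate 1) and 0 to 1 members (UCSF034_000800 without reprogrammed mammary replicate 2, UCSF034_001994 without replicate 4). The fits that called a member called 178, 96 and 115 of the 947 probes, in that order. The difference of both changes was not fitted on fewer groups because it uses all 4. The replicate block called 0, 0 and 0 members, where 2, 177 and 78 of the 947 probes were called. It gave 1, 7 and 5 members at an unadjusted p under 0.05 and medians of 0.18, -0.53 and 0.79. Same-numbered samples had deviations with correlations from -0.05 to 0.25 in lung and -0.29 to 0.18 in mammary cells. In each tissue 2 of 6 samples were best with their own number. So few samples cannot show whether those of the same number share an animal or a preparation. The rule found 30 probes in the table, 63 on scanner values, 46 after quantile normalization, 2 without scaling (0 of them members) and 0 at a margin of 1. Leaving out each array gave 23 to 39. The members' median margin of 1.00 became -0.10 without scaling and 0.86 to 1.23 leaving out each array. Without scaling, margins also turned for UCSF034_001760 (-0.20), UCSF034_001762 (-0.008), UCSF034_002051 (-0.44), UCSF034_002239 (-0.12), UCSF034_002411 (-0.12), UCSF034_001809 (-0.13) and UCSF034_001994 (-0.49). The reprogrammed tissue difference then turned for UCSF034_002204 (-0.30), UCSF034_002393 (-0.29), UCSF034_002051 (-0.66), UCSF034_002017 (-0.39), UCSF034_002479 (-0.24), UCSF034_002239 (-0.70), UCSF034_002411 (-0.45) and UCSF034_001809 (-0.34), and the adult one for UCSF034_001760 (-0.60), UCSF034_001762 (-0.36), UCSF034_001809 (-0.51) and UCSF034_001994 (-0.54). Differences near 0 turned for UCSF034_001760 between adult tissues (-0.008) and UCSF034_001762 between reprogrammed tissues (0.048) with the percentile over all probes. UCSF034_002051 (-0.029) turned in the authors' table, UCSF034_001760 (-0.081, adult) and UCSF034_002239 (-0.099, reprogrammed) under the replicate block, and UCSF034_002479 (0.049) and UCSF034_002402 (0.089) with slide as a block. Leaving out each array gave, between reprogrammed tissues, -0.565 to 0.069 for UCSF034_001760, -0.275 to 0.13 for UCSF034_001762, -0.03 to 0.39 for UCSF034_002051 and -0.39 to 0.53 for UCSF034_002239. Between adult tissues it gave -0.048 to 0.515 for UCSF034_001760, -0.328 to 0.042 for UCSF034_002479 and -0.29 to 0.11 for UCSF034_002402. Apart from no scaling, which leaves each array's brightness in the values, and arrays left out, the cause was not tested. With 3 arrays per group, the SEs of the members' differences between tissues ran from 0.15 to 1.03.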
